A study of Rattus norvegicus with 6 samples.

Results

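Semaphorins are a family of secreted and membrane-bound signalling proteins, and plexins and neuropilins are their receptors. The genes were taken from the deposited rat count table by symbol, as every class 3 to 7 semaphorin, every A to D plexin and both neuropilins. This gave 31 of 30498 genes, of which 20 encode semaphorins, the ligands, and 11 encode receptors (9 plexins and 2 neuropilins). The RNA came from wild-type rat mesenchymal stem cells (MSC) of 2 sources, with 3 libraries of rcMSC, taken from cranial bone marrow, and 3 of rbMSC, taken from femur and tibia marrow. No treatment, age, passage or culture condition is given in the sources used here, nor is it said whether replicates are separate animals or cultures. The spread behind each p-value is thus that of these libraries alone and could be technical. By its title the study concerned cranial MSC transplants in spinal cord injury, and these 6 libraries allow 1 comparison, rcMSC against rbMSC.

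Class 3 semaphorins are secreted and mostly bind a neuropilin, which holds a plexin of the A or D type as the signalling partner. Classes 4 to 7 sit in or on the membrane and mostly bind plexins directly. Plexins signal inside the cell by switching off small GTPases of the Ras and Rap families, which collapses or redirects the actin cytoskeleton. The family is known for steering axons away from tissues, and in bone for signals between osteoblasts, osteoclasts, nerves and vessels.

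The promoters of Sema3e, Plxnd1 and Nrp1 are shown because these 3 genes, a ligand, its receptor and a coreceptor, all fell at least 2-fold in rcMSC, and that of Sema4f because it was the member that rose most. Each sequence is from RefSeq on the rat build GRCr8, on the coding strand, from 250 bases before to 50 bases after the annotated start. GRCr8 is not the build of the counts. Capitals mark the GC box, GGGCGG on either strand, a motif bound by SP-family factors.
Sema3e, chr4:21510325-21510624, minus strand: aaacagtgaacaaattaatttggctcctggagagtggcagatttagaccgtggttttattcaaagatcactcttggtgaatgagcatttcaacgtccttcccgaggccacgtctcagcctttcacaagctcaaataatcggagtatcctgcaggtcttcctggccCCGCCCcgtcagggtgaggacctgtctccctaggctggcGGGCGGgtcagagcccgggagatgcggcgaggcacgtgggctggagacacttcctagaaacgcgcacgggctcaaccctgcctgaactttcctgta
Plxnd1, chr4:150715138-150715437, minus strand: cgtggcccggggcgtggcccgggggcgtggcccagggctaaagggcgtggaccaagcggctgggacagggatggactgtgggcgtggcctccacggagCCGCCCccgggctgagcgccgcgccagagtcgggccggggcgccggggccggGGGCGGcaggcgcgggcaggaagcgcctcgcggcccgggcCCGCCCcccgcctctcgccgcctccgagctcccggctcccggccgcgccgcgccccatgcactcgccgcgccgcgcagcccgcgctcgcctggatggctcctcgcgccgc
Nrp1, chr19:73256307-73256606, plus strand: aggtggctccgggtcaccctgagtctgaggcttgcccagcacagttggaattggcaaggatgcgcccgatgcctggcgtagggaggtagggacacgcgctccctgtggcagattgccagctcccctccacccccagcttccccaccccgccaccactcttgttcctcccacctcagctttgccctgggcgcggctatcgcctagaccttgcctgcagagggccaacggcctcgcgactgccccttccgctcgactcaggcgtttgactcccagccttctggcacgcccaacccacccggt
Sema4f, chr4:116995393-116995692, minus strand: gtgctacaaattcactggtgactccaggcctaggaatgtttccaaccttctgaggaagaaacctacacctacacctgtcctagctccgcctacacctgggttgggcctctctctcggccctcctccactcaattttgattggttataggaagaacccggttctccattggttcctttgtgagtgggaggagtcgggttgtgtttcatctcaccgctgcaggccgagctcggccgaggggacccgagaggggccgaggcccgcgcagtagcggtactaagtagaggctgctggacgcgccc

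The Sema3e window held 2 GC boxes, that of Plxnd1 held 3, and those of Nrp1 and Sema4f held 0. A GC box was found in 33.1% of all 33469 promoter windows of this length, and in 13 of the 23 windows available for the family. G or C made up 83.0% of the Plxnd1 window, 66.3% of that of Nrp1, 58.0% of that of Sema4f and 55.3% of that of Sema3e. The median over all windows was 51.7%. None of the 4 windows held TATAAA or the AP-1 motif TGANTCA, which occurred in 14.2% and 7.33% of all windows. The motif CCAAT was found 2 times in Sema4f and 1 time in Nrp1, and in 37.5% of all windows. The E-box CANNTG was found 2 times in Sema4f and 1 time each in Sema3e and Nrp1, and in 72.1% of all windows. Every motif was searched on both strands, and a match describes the letters only. Of the 31 genes, 23 were in the promoter table.

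Depth lay between 21340290 and 26928079 counts in the 6 libraries. On the scale of counts relative to library size (CPM), a single count equals 0.0371 to 0.0469. The semaphorin, plexin and neuropilin genes took 0.454% to 0.462% of counts in rbMSC and 0.40% to 0.41% in rcMSC. The libraries of rbMSC lay close together, while rcMSC replicate 3 stood apart from the other rcMSC libraries. Its root mean square distance from them was 0.433 on the log2 CPM scale, against 0.271 to 0.328 for the other 5 libraries from their own group. The markers Thy1, Nt5e, Eng and Cd44, used to define MSC, were detected in every library. The blood cell marker Ptprc (CD45), which MSC should lack, had 136 ± 4.9 CPM in rbMSC and 45.6 ± 9.5 in rcMSC (SD, n = 3 each). All 20 monocyte and macrophage markers of a fixed list had counts, with summed levels of 1314 to 1319.8 CPM in rbMSC and 752 to 794 CPM in rcMSC. Of the 19 tested, 14 were lower and 0 higher in edgeR (over all genes, 23.2% and 22.6%). The count of higher ones was 0 in DESeq2 and in limma voom, and 1 at an unadjusted p under 0.05 in edgeR.

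Semaphorins changed in both directions between the MSC sources, while no receptor passed the threshold as higher in rcMSC. In such bulk samples, fewer cells of a type and less RNA per cell cannot be told apart. Levels are CPM after TMM scaling, changes are given as the log2 ratio of rcMSC to rbMSC (the log2 fold change), and a gene was called at an adjusted p under 0.05 in edgeR's quasi-likelihood test over 14836 genes. Of the 31 genes, 30 passed the low-count filter and 24 of these were called, 8 higher and 16 lower. Over all genes tested, 45.8% were called, 22.6% higher and 23.2% lower. The called share was 80.0% among the genes tested here, whose median abundance of 4.77 log2 CPM was above the 3.80 of all genes tested. The part of abundance in this share was not tested. Among the ligands, 8 were higher, 10 lower and 2 not called. Among the 10 receptors tested, 6 were lower, 4 were not called and 0 were higher. At an unadjusted p under 0.05 in edgeR, and with DESeq2 or limma voom, the count of higher receptors was also 0. With a trend in gene length removed it was 2, Plxna1 and Plxnc1, and 4 receptors were lower, where 45.3% of all genes were called.

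A total of 3 of the tested genes passed the filter, at least 10 counts in a library of median size, through 1 group only. Sema3g and Sema4f were below it in rbMSC replicates, and Sema6c was below it in an rcMSC replicate. Among the 27 genes above it in every library, 6 were higher and 16 lower. The 31st gene, Plxnb3, a plexin known from oligodendrocytes, had 1 count in rbMSC and 0 in rcMSC and was not tested. The groups did not overlap in 25 of the 30 genes, the 24 called ones and Plxna4, against 57.1% of all genes tested. Without rcMSC replicate 3, 7 genes were higher and 17 lower, and 60.1% of all genes were called.

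**Figure D1:**
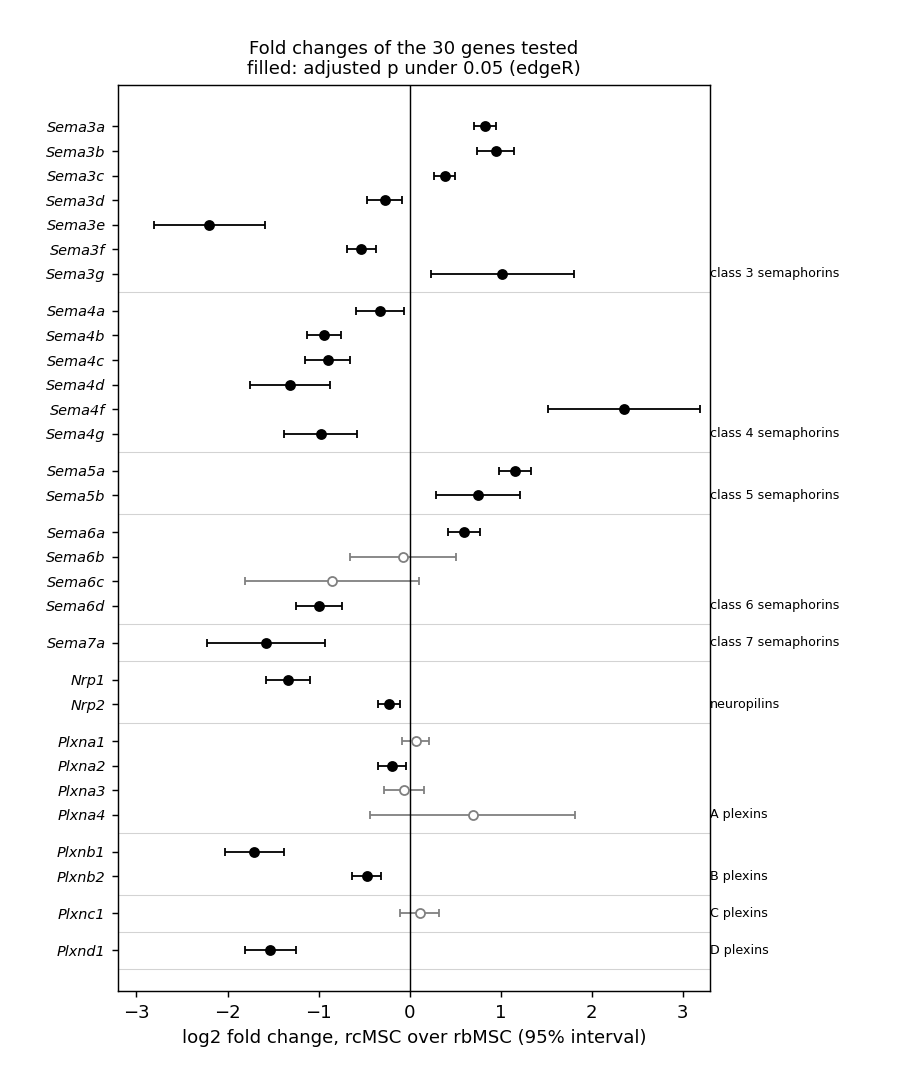
Log2 fold change of rcMSC over rbMSC for the 30 genes tested (x axis), grouped by class (y axis), with 95% intervals from edgeR. Filled points have an adjusted p under 0.05; the 8 filled points right of 0 are all semaphorins, and the 6 filled receptors all lie left of 0.

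The secreted class 3 semaphorins supplied most of the ligand RNA in both sources. Per kilobase of gene length, their summed level was 276 ± 5.7 CPM per kb in rbMSC, and it was 289 ± 6.6 in rcMSC (SD, n = 3 each), or 1.05 times as high. The 7 members moved in opposite directions under this nearly level sum, with Sema3a, Sema3b, Sema3c and Sema3g higher and Sema3d, Sema3e and Sema3f lower in rcMSC.

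Sema3c, a secreted guidance signal of the heart outflow tract and of neural crest cells, was the most abundant semaphorin per length in both sources. Its level was 664, 688 and 675 CPM in rbMSC replicates 1 to 3 and 896, 867 and 889 CPM in rcMSC replicates 1 to 3. All rcMSC libraries were higher, with a log2 ratio of 0.39 (SE 0.052, adjusted p in edgeR = 0.000192). Its share of all semaphorin RNA, per length, was 43.3% in rbMSC and 55.6% in rcMSC.

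Sema3d, its closest rival in level, is a ligand that guides axons and endothelial cells. It stood at 420.1, 445 and 422 CPM in rbMSC and 385, 376 and 304 CPM in rcMSC. The groups did not overlap, and rcMSC replicate 3 was the lowest. The log2 ratio of -0.27 (SE 0.085, adjusted p in edgeR = 0.0244) was -0.17 without that library. The call was lost without any 1 of the rbMSC libraries (adjusted p = 0.0649, 0.102 and 0.0698), with total count scaling (0.0511) and with the length trend removed (0.163).

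Sema3e, a ligand that binds Plexin-D1 without needing a neuropilin and repels growing vessels, fell most of all genes of the family. It had 116, 119 and 121 CPM in rbMSC and 20.6, 19.6 and 37.7 CPM in rcMSC. The rbMSC libraries were nearly equal, and rcMSC replicate 3 lay between the other rcMSC libraries and rbMSC without reaching it. The log2 ratio was -2.20 (SE 0.25, adjusted p in edgeR = 0.000683), or -2.56 without rcMSC replicate 3. It was the 7th most abundant gene of the family per length in rbMSC and the 11th in rcMSC (ENSRNOG00000006631, chromosome 4, 20299718 to 20555229 in mRatBN7.2).

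Sema3a, the classic repellent of sensory axons and a signal of osteoblast-lineage cells that restrains osteoclasts, had 61.4, 63.9 and 62.5 CPM in rbMSC. In rcMSC it had 113, 111 and 110.1 CPM, higher in every library and with little spread (log2 ratio 0.83, SE 0.054, adjusted p in edgeR = 9.85e-07). Leaving out any 1 library gave 0.81 to 0.84. Sema3a and Sema3e thus changed places: the ratio of Sema3a to Sema3e, per length, was 0.418 to 0.435 in the rbMSC libraries and 4.43, 4.60 and 2.37 in rcMSC replicates 1 to 3.

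Sema3f, a repellent that acts mainly through neuropilin-2, fell from 57.2 ± 1.6 to 39.6 ± 2.8 CPM (SD, n = 3 each; log2 ratio -0.53, SE 0.072, adjusted p in edgeR = 0.000192). Sema3b, a ligand first known as a tumour suppressor candidate, rose from 9.67 ± 0.47 to 18.7 ± 0.53 CPM (log2 ratio 0.95, SE 0.092, adjusted p in edgeR = 1.92e-05). The Sema3b value is uncertain, because 89.7% of its exon bases are shared with Lsmem2 on the same strand. Sema3b had 208, 212 and 255 counts in rbMSC and 516, 519 and 452 in rcMSC. Lsmem2 had nearly the same, 210, 214 and 282 in rbMSC and 509, 503 and 446 in rcMSC (log2 ratio 0.86). The 2 rises may rest on the same reads, which was not tested. Sema3g, an endothelial ligand, was near the detection limit with 8, 9 and 7 counts in rbMSC and 20, 17 and 19 in rcMSC. Every rcMSC library was higher (log2 ratio 1.02, SE 0.35, adjusted p in edgeR = 0.0374), but the call was lost without any 1 of the 6 libraries, without the low-count filter (adjusted p = 0.0808), with the replicate number as a block (0.0734) and in DESeq2 (0.154).

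Class 3 genes lie on 3 chromosomes, with Sema3g alone on chromosome 16. Sema3c, Sema3e, Sema3a and Sema3d lie in this order on the minus strand of chromosome 4, within 4.92 Mb from 17583212 to 22505930 in mRatBN7.2. Their log2 ratios along it were 0.39, -2.20, 0.83 and -0.27, with Sema3e and Sema3a separated by 733 kb. Of 17 other annotated genes in that stretch, 5 passed the filter and 1 was called, the calcium channel subunit Cacna2d1 (log2 ratio 0.20). Sema3b and Sema3f lie 74.7 kb apart on chromosome 8, also on the minus strand, with changes of 0.95 and -0.53.

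**Figure D2:**
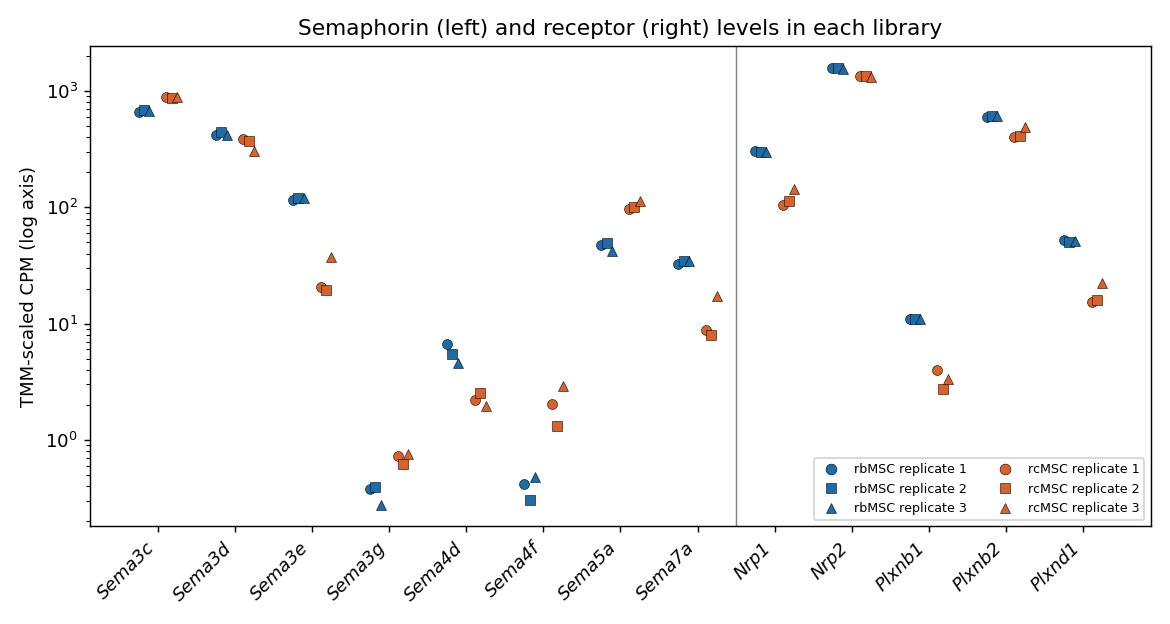
TMM-scaled CPM on a log axis for 13 genes (x axis) in each of the 6 libraries, rbMSC in blue and rcMSC in orange, with a symbol for each replicate. The 2 groups do not overlap in any of the 13. Of the rcMSC libraries, replicate 3 (triangle) lies nearest to rbMSC for Sema3e, Sema7a, Nrp1, Plxnb2 and Plxnd1. It lies farthest from rbMSC for Sema3d, Sema3g, Sema4d, Sema4f, Sema5a and Nrp2.

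The class 4 semaphorins, membrane proteins that are often shed, fell in 5 of 6 cases. Summed per length, the class had 12.6 ± 0.40 CPM per kb in rbMSC, and it had 7.62 ± 0.50 in rcMSC, or 0.607 times as much. Sema4d (CD100), which osteoclasts and immune cells use to signal to osteoblasts, had 6.64, 5.49 and 4.55 CPM in rbMSC and 2.18, 2.54 and 1.96 CPM in rcMSC. All rcMSC libraries were lower (log2 ratio -1.31, SE 0.20, adjusted p in edgeR = 0.000382). Sema4g, Sema4b and Sema4c had log2 ratios of -0.98, -0.94 and -0.90 (adjusted p in edgeR = 0.00158, 1.09e-05 and 9.23e-05). Sema4b was the most abundant of the class, with 32.5 ± 0.86 and 16.9 ± 1.4 CPM, and each of the 3 was lower in all rcMSC libraries. Sema4a, a ligand of T cells and retina, was lower by -0.32 (SE 0.12, adjusted p in edgeR = 0.0473). Its call was lost without the low-count filter, in DESeq2, with the replicate number as a block, with the length trend removed and without each library except rcMSC replicate 3 (adjusted p from 0.0503 to 0.137).

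Sema4f, a semaphorin of the nervous system, was the exception in its class and the gene that rose most. It had 9, 7 and 12 counts in rbMSC and 56, 36 and 72 counts in rcMSC, or 0.421, 0.303 and 0.475 CPM against 2.04, 1.33 and 2.88 CPM. The rcMSC libraries were all higher but spread over a wide range. The log2 ratio was 2.36 (SE 0.38, adjusted p in edgeR = 0.000586), and 2.06 to 2.60 without any 1 library. It stayed a minor transcript, at 0.164% of semaphorin RNA per length in rcMSC.

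Both class 5 semaphorins, membrane proteins with thrombospondin repeats, were higher in rcMSC. Sema5a, which can attract or repel axons, had 47.0, 49.7 and 42.5 CPM in rbMSC and 97.5, 99.8 and 114 CPM in rcMSC, with no overlap. Its log2 ratio was 1.16 (SE 0.081, adjusted p in edgeR = 1.68e-06), the largest rise among genes above the filter in every library. Sema5b rose from 2.03 ± 0.22 to 3.42 ± 0.65 CPM (log2 ratio 0.75, adjusted p in edgeR = 0.0139) and was not called without rbMSC replicate 3 (adjusted p = 0.0602). The class sum was 4.82 ± 0.39 CPM per kb in rbMSC and 10.5 ± 0.96 in rcMSC.

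Class 6, membrane semaphorins that bind A plexins, was split. Sema6a, which guides migrating neurons, rose from 23.8 ± 1.2 to 36.0 ± 2.3 CPM (log2 ratio 0.60, SE 0.080, adjusted p in edgeR = 0.000182). Sema6d, a signal in heart development, fell from 9.95 ± 0.37 to 4.99 ± 0.12 CPM (log2 ratio -0.99, SE 0.12, adjusted p in edgeR = 6.76e-05). The groups did not overlap for either. Sema6b was at -0.07 with a 95% interval of -0.66 to 0.51, and Sema6c at -0.85 with an interval of -1.80 to 0.10, both at or below 2.50 CPM in every library. Sema6c was called without rcMSC replicate 3 (log2 ratio -1.11, adjusted p in edgeR = 0.0362).

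Sema7a, the only GPI-anchored semaphorin, acts on integrins and Plexin-C1 and promotes axon growth and monocyte activation. It had 32.4, 34.8 and 34.3 CPM in rbMSC and 8.89, 8.03 and 17.2 CPM in rcMSC. The rcMSC libraries were all lower, with replicate 3 between the other rcMSC libraries and rbMSC. The log2 ratio was -1.58 (SE 0.27, adjusted p in edgeR = 0.0032), or -2.00 without rcMSC replicate 3 (ENSRNOG00000007687, chromosome 8, 58348448 to 58370536).

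**Figure D3:**
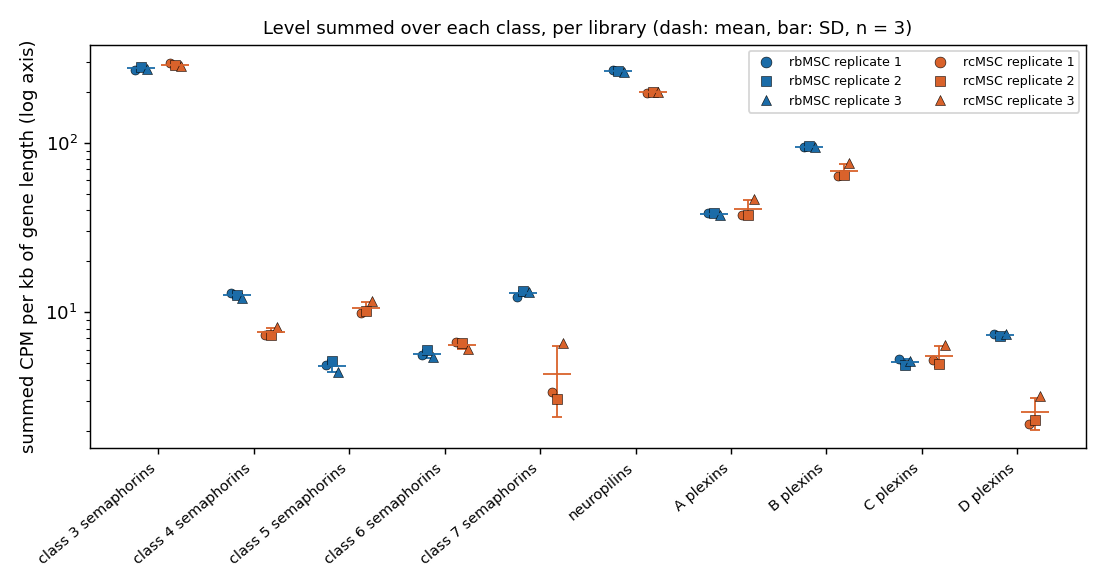
Summed CPM per kb of gene length on a log axis for each class of semaphorin and receptor (x axis), with each library as a point, the mean as a dash and the SD as a bar (n = 3). Class 4 and class 7 semaphorins, neuropilins and B and D plexins are lower in rcMSC, class 5 is higher, and class 3 moved from 276 to 289.

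Receptor RNA as a whole was lower in rcMSC, with a sum per length of 412 ± 3.3 CPM per kb in rbMSC, and it was 316 ± 14 in rcMSC, or 0.768 times as high. The neuropilins, coreceptors with short intracellular tails that also bind VEGF, made up most of it. Nrp2 alone was 49.9% of receptor RNA per length in rbMSC and 55.6% in rcMSC.

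Nrp1, the neuropilin that Sema3a uses, had 306, 299.7 and 302 CPM in rbMSC and 104, 112 and 144 CPM in rcMSC. Every rcMSC library lay below every rbMSC library (log2 ratio -1.33, SE 0.11, adjusted p in edgeR = 1.05e-05), and leaving out 1 library gave -1.48 to -1.24 (ENSRNOG00000010744, chromosome 19, 56359455 to 56513633). Nrp2, preferred by Sema3f, had 1588, 1571 and 1551 CPM in rbMSC and 1350.3, 1361 and 1313 CPM in rcMSC. It was lower in all rcMSC libraries by only -0.23 (SE 0.053, adjusted p in edgeR = 0.00589), and by -0.09 with the length trend removed (adjusted p = 0.202). The ratio of Nrp2 to Nrp1, per length, was 3.35 to 3.41 in the rbMSC libraries and 8.44, 7.87 and 5.93 in rcMSC replicates 1 to 3.

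Plxnd1 encodes Plexin-D1, the receptor of Sema3E on vessels. Its level was 52.1, 50.2 and 51.8 CPM in rbMSC and 15.3, 16.0 and 22.2 CPM in rcMSC, lower in every rcMSC library. The library nearest to rbMSC was rcMSC replicate 3, as it was for 12 of the 24 called genes of the family. The log2 ratio was -1.53 (SE 0.13, adjusted p in edgeR = 8.39e-06), or -1.71 without that library (ENSRNOG00000025209, chromosome 4, 149002784 to 149043244). It was 5.06% of plexin RNA per length in rbMSC and 2.18% in rcMSC.

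Plxnb1, whose protein Plexin-B1 binds Sema4D and acts on RhoA, had 10.9, 11.0 and 10.9 CPM in rbMSC and 3.97, 2.76 and 3.32 CPM in rcMSC. It was lower in all rcMSC libraries by a log2 ratio of -1.70 (SE 0.15, adjusted p in edgeR = 8.39e-06), the largest fall among the receptors (ENSRNOG00000029510, chromosome 8, 109744697 to 109769027). Plxnb2, which binds Sema4C and Sema4D, was the most abundant plexin, at 602, 607 and 605 CPM in rbMSC and 406, 415 and 487 CPM in rcMSC. It fell by less, -0.47 (SE 0.073, adjusted p in edgeR = 0.000477), again with rcMSC replicate 3 nearest to rbMSC. Summed per length, B plexins ranged from 94.6 to 95.4 CPM per kb over the rbMSC libraries and from 63.4 to 75.9 over the rcMSC libraries.

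The A plexins, partners of neuropilins and receptors of class 6, summed to 38.2 ± 0.67 CPM per kb in rbMSC and 40.6 ± 5.1 in rcMSC. Plxna1, the most abundant of them, had 356 ± 4.1 CPM in rbMSC and 373 ± 31 in rcMSC (log2 ratio 0.07, 95% interval -0.08 to 0.21, adjusted p in edgeR = 0.43). Removing the length trend moved Plxna1 to 0.26 (adjusted p = 0.00143), and 7.2% of its exon bases are shared with Chchd6. Plxna3 was at -0.06, with an interval of -0.28 to 0.16. Plxna2 was lower by -0.19 (SE 0.070, adjusted p in edgeR = 0.0472), a call lost without each library except rcMSC replicate 3, in DESeq2 (0.0919), without the low-count filter (0.0829), with the replicate number as a block (0.0953) and with the length trend removed (log2 ratio -0.02, adjusted p = 0.815).

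Plxna4, which serves Sema3A in sensory neurons, was set by 1 library. It had 32.6, 32.4 and 32.4 CPM in rbMSC and 33.0, 33.6 and 91.2 CPM in rcMSC. Only rcMSC replicate 3 was clearly high, and the log2 ratio of 0.69 (SE 0.45, adjusted p in edgeR = 0.262) became 0.04 without it. Plxnc1, the plexin of Sema7a, had 38.9 ± 1.4 CPM in rbMSC and 42.0 ± 5.8 in rcMSC (log2 ratio 0.11, 95% interval -0.10 to 0.33, adjusted p in edgeR = 0.365). It too was highest in rcMSC replicate 3, and without that library stood at -0.004.

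**Figure D4:**
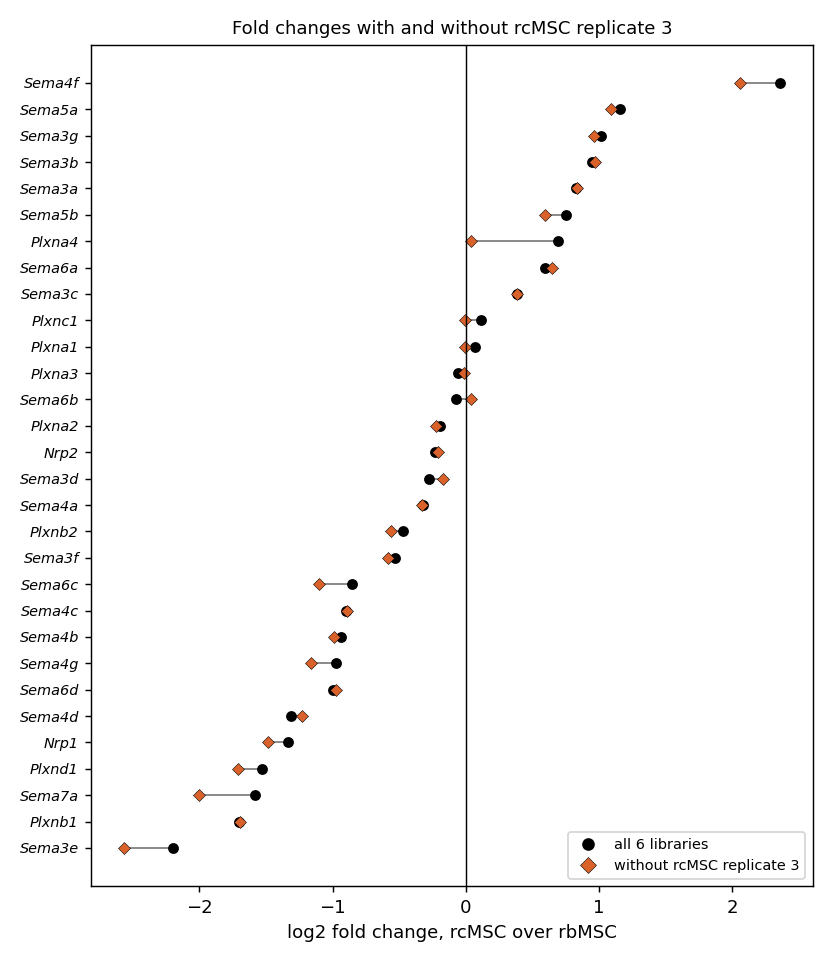
Log2 fold change of each of the 30 genes (y axis, ordered by value) with all 6 libraries (black circles) and without rcMSC replicate 3 (orange diamonds). Plxna4 moves from 0.69 to 0.04, while Sema3e and Sema7a move away from 0, to -2.56 and -2.00.

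Set side by side, ligands and receptors known to bind each other moved in several combinations. Of 19 such pairs, both genes were lower in 6, the ligand was higher and the receptor lower in 5, the ligand was higher and the receptor not called in 5, and the ligand was lower and the receptor not called in 3. Sema3e and Plxnd1 were both lower (-2.20 and -1.53), as were Sema4d (-1.31) with Plxnb1 (-1.70) and Plxnb2 (-0.47), Sema4c (-0.90) with Plxnb2, Sema3f (-0.53) with Nrp2 (-0.23) and Sema4a (-0.32) with Plxnd1. Sema3c, the most abundant ligand, was higher (0.39) while its receptors Nrp1 (-1.33), Nrp2 and Plxnd1 were lower. Sema3a was higher (0.83) while Nrp1 was lower, and Sema6a was higher (0.60) while Plxna2 was lower (-0.19). For Sema7a and Plxnc1 the ligand was lower and the receptor was not called (-1.58 and 0.11). Sema5a was higher with neither Plxna1 nor Plxna3 called (1.16, 0.07 and -0.06). These pairs were picked with the results known and carry no test of their own. Several genes recur in them, and some ligands, such as Sema3b and Sema3d, are in none. Of the 10 receptors tested 6 were lower and 0 higher, and of the 20 ligands 10 were lower and 8 higher, which limits the combinations possible. The calls of Nrp2, Plxna2 and Sema4a were lost in some alternatives. With the length trend removed, Plxna1 and Plxnc1 were called higher (0.26 and 0.24, adjusted p in edgeR = 0.00143 and 0.0303), so that the combinations of their pairs change.

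Markers of several cell types moved in the same comparison, in which 22.6% of all genes tested were higher and 23.2% lower. Each count of markers in this paragraph is to be read beside these shares. Macrophages are known to express Sema4d, Sema4a, Plxnd1, Nrp1 and Sema7a. These were named with their values known and were all lower, so that their shared direction follows from the choice and is no result. Other genes of the family, such as Plxnc1 (0.11) and Plxna1 (0.07), were not called. The summed macrophage markers were 1314 to 1319.8 CPM in rbMSC and 752 to 794 CPM in rcMSC, with Cx3cr1 at -2.68 and Cd74 at -2.13. In all, 9 of 10 pericyte and smooth muscle markers were also lower (over all genes, 23.2%). The count of higher ones was 0 in edgeR, DESeq2 and limma voom, and 0 at an unadjusted p under 0.05 in edgeR. Their sum was 6391 to 6689 CPM in rbMSC and 2851 to 3148 CPM in rcMSC, with Rgs5 at -6.33 and Myh11 at -4.49. Acta2 was the largest part of this sum in rbMSC, with a mean of 2972 CPM. Pdgfrb, with a mean of 1112 CPM in rbMSC, also stands among the MSC surface markers below. Whether the pericyte and smooth muscle markers came from cells other than MSC was not tested. The part of macrophages, pericytes or smooth muscle cells in the receptor and class 4 results was not tested. Endothelial markers summed to 46.7 to 48.9 CPM in rbMSC and 39.3 to 42.4 CPM in rcMSC. Of 9 tested, 1 was higher (Tek, 0.90) and 2 lower (Erg, -0.52, and Tie1, -0.50, not called without rbMSC replicate 2). The defining Pecam1 and Cdh5 had means between 0.88 and 1.30 CPM in both groups. Among the markers of neurons and Schwann cells, Elavl4 had no count in any library and the mean of Sox10 was at most 0.0144 CPM, while of 7 tested 2 were higher and 2 lower, with Stmn2 at 1.57 and S100b at -1.04. Of 2 lymphoid and erythroid markers tested, the progenitor marker Cd34 was lower (-1.78), and Nkg7 and Klrd1 had no count in any library. Among 12 MSC surface markers, 5 were higher and 6 lower, with Alcam at 1.11 and Eng at 0.88 against Cxcl12 at -3.78 and Thy1 at -1.12.

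Other proteins that join semaphorin receptors at the cell surface also differed between the sources. Of 20 tested from a fixed list, 4 were higher and 10 lower (over all genes, 22.6% and 23.2%), with a median log2 ratio of -0.31, against 0.015 over all genes. The 10 lower genes include Ptprc (-1.57), Trem2 (-0.56) and Lilrb3 (-1.11), which are genes of blood cells, and Cd93 (-1.01), known from endothelial and myeloid cells. Ptprc and Tyrobp also stand in the macrophage list, which was lower in 14 of 19, and the part of those cells in this count was not tested. Itga1, the alpha subunit of the integrin that binds Sema7A, fell from 456 ± 14 to 92.5 ± 17 CPM (log2 ratio -2.30, SE 0.12, adjusted p in edgeR = 5.4e-07). Its partner subunit Itgb1 fell by 0.43 on the log2 scale, so that Sema7a and both subunits were lower together. Itgb3, another integrin subunit, was also lower (-1.87, adjusted p in edgeR = 2.16e-06). The axonal adhesion protein Cntn2 rose from 12.7 ± 0.90 to 34.4 ± 0.98 CPM (log2 ratio 1.44, adjusted p in edgeR = 4.26e-07). The surface proteoglycan Gpc3 rose from 0.80 ± 0.45 to 5.34 ± 0.33 CPM (log2 ratio 2.71, adjusted p in edgeR = 8.52e-05). Its rbMSC level was near the detection limit, at 6, 25 and 26 counts. The axonal adhesion proteins Nrcam and Chl1 were lower (-0.72 and -3.59), Chl1 at under 1 CPM on average in both groups. Met and Erbb2, receptor kinases that associate with B plexins, were not called (0.25 and 0.22).

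Inside the cell, 41 genes were tested from a fixed list of plexin effectors and relatives of effectors, such as Micall1 and Micall2. Of these, 4 were higher and 19 lower (over all genes, 22.6% and 23.2%), with a median of -0.18. Micall2, a relative of the MICAL oxidases that take actin filaments apart, fell from 22.0 ± 2.5 to 7.66 ± 0.49 CPM (log2 ratio -1.52, adjusted p in edgeR = 2.71e-06). Mical3 and Mical2 were lower by -1.13 and -0.48. Crmp1, a collapsin response mediator of Sema3A signalling, fell by 1.34 on the log2 scale (adjusted p in edgeR = 0.00665), and its relatives Dpysl3 and Dpysl2 by 0.65 and 0.37. Arhgef11, an exchange factor that docks on B plexins to activate RhoA, was lower (-0.36) and its relative Arhgef12 was not called (0.01). Rhoa itself was higher (0.37, adjusted p in edgeR = 0.00158), while the GTPase Rras, a target of plexin activity, was lower by -0.56. Farp2, an exchange factor released by A plexins, and the GTPase Mras were higher, both by 0.39 (adjusted p in edgeR = 0.000152 and 0.000329). Apart from Micall2, Crmp1, Farp2 and Mras, the genes of this list given here were chosen after their values were seen. So were Itgb1, Nrcam, Chl1, Met, Erbb2 and the blood cell genes above.

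Proteases that cut semaphorins showed opposite changes. Of 9 tested, 4 were higher and 3 lower (over all genes, 22.6% and 23.2%). Furin, which cleaves and tunes class 3 semaphorins, fell from 121 ± 3.0 to 71.1 ± 6.6 CPM (log2 ratio -0.76, adjusted p in edgeR = 1.51e-05), while its relative Pcsk5 rose from 43.2 ± 2.3 to 285 ± 15 CPM (2.72, adjusted p in edgeR = 1.12e-09). Mmp2 was higher by 1.24. Adam17 and Pcsk7 were lower by -0.32 and -0.31, but among the fits that left out 1 library both calls were kept only without rcMSC replicate 3, so that Furin was the 1 lower protease called in all of them. Pcsk7 was named after its values were seen. Of the VEGF family ligands of neuropilins, Vegfb (1.00) and Pgf (0.85) were higher and Vegfc (-0.95) was lower, with adjusted p in edgeR = 0.00529, 8.07e-05 and 4.46e-05. Vegfa, the one with the highest CPM, was not called (-0.05, adjusted p in edgeR = 0.693) and was named after its values were seen.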

How the data were processed

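RNA was read as 150 nt pairs (DNBSEQ-G400RS), per the labels. The labels' protocols say that the authors used Trim Galore 0.6.7 and then Trimmomatic 0.39 for trimming, STAR 2.7.9a for alignment to mRatBN7.2, and featureCounts 2.0.1 to count per gene. The submitters' processing notes also list DESeq2 1.20.0. For strand, multiply mapped reads and annotation release, the setting is not given in the sources used here. The deposited values are raw counts, with no normalization by the authors, and reads in exons shared by 2 genes cannot be told apart between them.

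Libraries were grouped by title. The 6 libraries were fitted with edgeR 4.0.16 (R 4.3.3): TMM scaling, filterByExpr with its minimum of 10 counts, robust quasi-likelihood F test, Benjamini-Hochberg adjustment over 14836 genes, threshold 0.05. SE is the log2 fold change over the square root of F. CPM per kb uses the deposited Length column and compares levels between genes. Counts were also simulated with a common dispersion for all genes and libraries, and with 50 genes changed at each fold. There edgeR recovered 80% of the 1.5-fold and 94% of the 2-fold changes, with 12 false calls among 14812 genes tested. No changed gene was a low-count one and no library stood apart as rcMSC replicate 3 does. The rates therefore do not carry over to low-count genes or to the spread of these libraries. Every pair of libraries in a group differed by more than counting noise in a chi-square test. The statistic per degree of freedom was 42.8 and 42.0 for the pairs with rcMSC replicate 3, and 2.69 to 3.16 for the other pairs.

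Values of each library are given for called genes changed at least 2-fold, both neuropilins and the 4 most abundant genes, and for Sema3a and Plxna4, added after their values were seen. From each fixed list, up to 2 called genes in each direction are named. The genes, lists and pairs were chosen with earlier results of these data known. Alternatives were other scalings and filters, DESeq2 1.42.0, limma 3.58.1 voom, non-robust dispersions, a replicate block, removal of a length trend, and leaving out each library. No pairing by replicate number is given in the labels. Deviations from the group means correlated at -0.052 to 0.018 between same-numbered libraries and at -0.058 to 0.064 between the others. With so few libraries this cannot exclude a weak pairing.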

Additional observations from a re-analysis of the deposited data

How the results depend on the processing

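Of the 24 called genes of the family, 18 kept direction and call in all 16 alternatives, and none of the 24 changed sign. The other 6 (Nrp2, Plxna2, Sema3d, Sema3g, Sema4a and Sema5b) lost the call in at least 1. The count of calls was 21 to 24 under other tools, scalings and filters, and 19 to 24 without 1 library, with 24 without rcMSC replicate 3. With the replicate number as a block, 21 genes of the family were called. With the length trend removed 22 were called, 10 higher and 12 lower, and 2 receptors were higher where 0 had been. Genes that were not called changed sign in some fits. Without 1 library, Plxna1 ranged from -0.0028 (without rcMSC replicate 3) to 0.11, Plxna3 from -0.14 to 0.00038 (without rbMSC replicate 2), Plxnc1 from -0.0041 (without rcMSC replicate 3) to 0.19, and Sema6b from -0.34 to 0.067 (above 0 without rbMSC replicate 2, rcMSC replicate 1 or rcMSC replicate 3). Plxna3 was at 0.074 with the length trend removed. Of the 2 lymphoid and erythroid markers tested, 1 was called, 2 with limma voom, and 1 to 2 without 1 library. The causes of these moves were not tested. With 24 to 63 counts summed in a group, Sema3g and Sema6c, and Sema4f in rbMSC, are limited by depth. Sema3g and Sema6c were not tested with a minimum of 1 CPM in 3 libraries. The order of the 4 most abundant genes was the same on CPM and per length.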

Other observations

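The plexin domain-containing proteins Plxdc1 and Plxdc2 share part of a name with plexins but are not semaphorin receptors of the same family. Plxdc2 had 519, 502 and 505 CPM in rbMSC and 312, 326 and 366 CPM in rcMSC, lower in every rcMSC library (log2 ratio -0.60, SE 0.067, adjusted p in edgeR = 5.09e-05). Plxdc1 had 1.22, 1.51 and 1.39 CPM in rbMSC and 0.364, 0.11 and 0 CPM in rcMSC, with a log2 ratio of -3.04 (adjusted p in edgeR = 0.00212) that was -4.46 to -2.51 without 1 library.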
